A study of Mus musculus with 6 samples.

Results

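The miR-148 and miR-152 family of the mouse consists of 3 microRNA hairpins, miR-148a, miR-148b and miR-152, each of which gives a 5p and a 3p strand. Its members were chosen by name, as the rows of both arms of these hairpins, which made 6 of the 1915 mouse microRNA names in the table (mmu-miR-148a-3p, mmu-miR-148a-5p, mmu-miR-148b-3p, mmu-miR-148b-5p, mmu-miR-152-3p and mmu-miR-152-5p, written below without the prefix). Small RNA libraries had been sequenced from 3 oviducts labelled Dicer1+/D1693N and 3 primary tumors labelled Dicer1ko/D1693N, named ADT tumors in the labels and given the tissue oviduct. All 6 samples thus carried the D1693N allele of Dicer1, and the groups differed in the other allele and in being normal or tumor tissue. The samples had received no treatment, and no strain, age, number of animals or driver of the knockout is given in the sources used here. GEO's design text counts 5 control oviducts and 4 tumors in the study, and 3 of each are covered here. The libraries held 297039 to 580390 mouse microRNA counts in the oviducts and 154002 to 272167 in the tumors. Genotype, tissue state and a tag in the column names changed together between the groups and cannot be told apart.

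MicroRNAs are short RNAs that guide Argonaute proteins to messenger RNAs through their seed, the bases from position 2 to 8. Dicer cuts them from a hairpin. Its RNase IIIb domain, where D1693N lies, cuts on the side of the 5p strand and its RNase IIIa domain on the side of the 3p strand. In the miR-148 and miR-152 hairpins the 3p strand is the usual guide and the 5p strand the passenger that is mostly degraded. The guide strands are known to repress the DNA methyltransferase Dnmt1, and miR-148a is abundant in many differentiated tissues.

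The mature strands are shown because the family is defined by its 3p seed, given in capitals together with the seeds of the 5p strands (5′ to 3′, RefSeq on GRCm38.p6, where all 6 names were found).
miR-148a-3p: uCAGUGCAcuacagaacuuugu
miR-148b-3p: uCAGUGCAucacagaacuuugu
miR-152-3p: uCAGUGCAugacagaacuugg
miR-148a-5p: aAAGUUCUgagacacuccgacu
miR-148b-5p: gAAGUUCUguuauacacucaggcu
miR-152-5p: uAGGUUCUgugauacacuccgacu

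Of 1679 mature names in that reference, the 3 guide strands were the ones with the seed CAGUGCA. Counted from the 5′ end, miR-148b-3p differs from miR-148a-3p by C9U and U10C, outside the seed. Over its 21 bases miR-152-3p differs from miR-148a-3p by C9U, U10G and U20G, and from miR-148b-3p by C10G and U20G. With so few differing bases, the way in which reads that fit more than 1 strand were assigned could shift counts between the 3 names, and no source used here gives it. No other name had the same counts as any family strand over the 6 libraries. The 5p strands of miR-148a and miR-148b share the seed AAGUUCU, while that of miR-152-5p, AGGUUCU, was found in no other name.

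The hairpins are shown to place the arms, in capitals, around the loop that Dicer removes.
miR-148a hairpin: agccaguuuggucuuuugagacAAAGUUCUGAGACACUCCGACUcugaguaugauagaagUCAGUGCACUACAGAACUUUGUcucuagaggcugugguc
miR-148b hairpin: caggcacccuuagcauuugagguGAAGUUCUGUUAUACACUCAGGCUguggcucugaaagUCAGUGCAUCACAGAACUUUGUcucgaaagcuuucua
miR-152 hairpin: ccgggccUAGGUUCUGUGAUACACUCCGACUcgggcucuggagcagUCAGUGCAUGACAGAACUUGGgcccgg

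Mir148a lies on chromosome 6 from 51269812 to 51269910 (GRCm38, minus strand) and overlaps no other annotated gene. Mir148b lies on chromosome 15 from 103285125 to 103285221 (plus strand), in an intron of Copz1, and Mir152 on chromosome 11 from 96850393 to 96850465 (plus strand), in an intron of Copz2. Copz1 and Copz2 encode related subunits of the COPI coat of Golgi vesicles. The loop between the arms has 16 bases in miR-148a, 13 in miR-148b and 15 in miR-152. The 3 hairpins are therefore separate genes on 3 chromosomes.

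The guide strands, which share a seed, moved in opposite directions. In the tumors miR-148a-3p, the most abundant, was lower, and miR-148b-3p and miR-152-3p were higher, and for none of the 3 did the groups overlap (over all 227 tested names they did not overlap for 60.4%). In whole tissue, fewer cells of a type and less RNA per cell cannot be told apart. Raw counts of miR-148a-3p were 8074, 10049 and 6044 in oviducts 1 to 3 and 2315, 2679 and 1965 in tumors 1 to 3. As CPM, the count scaled by library size after adjustment for composition with trimmed mean of M-values (TMM) factors, these were 25176, 18343 and 23892 CPM in the oviducts and 11658, 11502 and 8639 CPM in the tumors. Every tumor stood below every oviduct. The mean fell from 22470.3 ± 3631 to 10599 ± 1699.8 CPM (SD, n = 3 each), a 2.12-fold fall (edgeR log2 fold change -1.08, SE 0.28, adjusted p = 0.00756). The strand ranked 5th, 7th and 4th among all mouse names by counts in the oviducts and 10th, 12th and 13th in the tumors. Its log2 change was -0.69 and not called when libraries were scaled by their totals alone (edgeR adjusted p = 0.273).

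For miR-148b-3p the raw counts were 99, 213 and 114 in the oviducts against 194, 250 and 282 in the tumors. In CPM these were 309, 389 and 451 in the oviducts against 977, 1073 and 1240 in the tumors. In CPM the tumors were all above the highest oviduct, by more than the spread within either group. Raw counts alone overlapped, with 213 in oviduct 2 and 194 in tumor 1, so this separation came with library sizes taken into account. The mean rose from 383 ± 71.2 to 1097 ± 133 CPM (n = 3 each), a 2.87-fold rise (edgeR log2 fold change 1.52, SE 0.31, adjusted p = 0.00246). Without oviduct 1, its lowest library, the log2 change was 1.08 and no longer called (edgeR adjusted p = 0.102), and with TMM factors from 3p names alone it was 0.64 and not called (edgeR adjusted p = 0.0814).

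For miR-152-3p the raw counts were 74, 91 and 51 in the oviducts against 87, 104 and 129 in the tumors. In CPM these were 231, 166 and 202 in the oviducts against 438, 447 and 567 in the tumors, again without overlap. Raw counts alone overlapped, so the separation came with the smaller tumor libraries taken into account. The mean rose from 199 ± 32.4 to 484 ± 72.2 CPM (n = 3 each), a 2.43-fold rise (edgeR log2 fold change 1.28, SE 0.34, adjusted p = 0.00964). This call was lost in more alternatives than those of the other guide strands. Leaving out oviduct 1, 2 or 3 gave log2 changes of 1.10, 1.07 and 0.97, none of them called (edgeR adjusted p = 0.127, 0.0664 and 0.130). It was also lost with TMM factors from 3p names alone (log2 0.38, edgeR adjusted p = 0.328), with no low-count filter (log2 0.98, edgeR adjusted p = 0.177) and with names kept from an average of 10 CPM upward (log2 0.98, edgeR adjusted p = 0.0735).

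**Figure D1:**
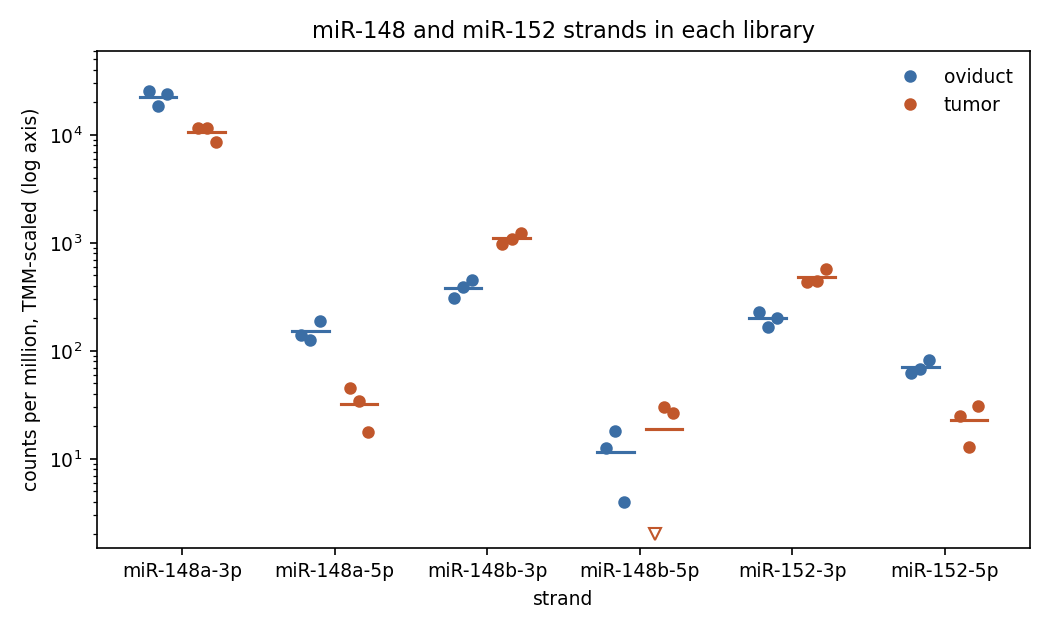
TMM-scaled CPM (log axis) of the 6 family strands in each of 3 oviducts (blue) and 3 tumors (orange), with points for libraries, bars for group means and an open triangle for a library with 0 counts. The 3p strand of miR-148a and the 5p strands of miR-148a and miR-152 are lower in every tumor, and the 3p strands of miR-148b and miR-152 are higher.

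Among all 227 names that could be tested, 26.9% were called higher and 25.6% lower in the tumors. Of 110 tested 3p strands, 41.8% were called higher and 10% lower. The rises of miR-148b-3p and miR-152-3p were therefore of a kind common among 3p strands, guides and passengers together, while the fall of miR-148a-3p was of a less common kind. Among 35 tested guide strands of other hairpins with a 3p guide, listed further below, fewer were called higher (8 higher and 4 lower, median log2 change 0.28). The median log2 change was 0.89 over tested 3p strands and 0.20 over all tested names. Scaling moved that overall median from 0.20 to 0.65 with library totals alone, to 0.32 with upper-quartile factors and to -0.73 with TMM factors from 3p names, which treat 3p strands as unchanged on average. Relative to the median of all names under the same scaling, the log2 change of miR-148a-3p lay between -1.35 and -1.21, that of miR-148b-3p between 1.31 and 1.37 and that of miR-152-3p between 1.08 and 1.11 over the 5 scalings. A scaling shifts all names nearly alike, so these ranges are narrow by construction and give the place of each guide strand among the names, not a check of its call.

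The ratio of guide strands within a library needs no scaling between libraries. In the oviducts miR-148a-3p had 81.6, 47.2 and 53.0 times the counts of miR-148b-3p, and in the tumors 11.9, 10.7 and 6.97 times. The log2 ratio went from 5.87 ± 0.414 to 3.26 ± 0.410 (n = 3 each), a difference of -2.61 (two-sided exact permutation p = 0.1, adjusted p = 0.15 over 3 ratios). Against miR-152-3p the ratios were 109, 110 and 119 in the oviducts against 26.6, 25.8 and 15.2 in the tumors. The log2 ratio went from 6.80 ± 0.0616 to 4.44 ± 0.450 (n = 3 each), a difference of -2.36 (exact permutation p = 0.1, adjusted p = 0.15). In both ratios every tumor was below every oviduct, and 0.1 is the smallest p that 3 against 3 allows, so neither could pass 0.05. The ratio of miR-148b-3p to miR-152-3p was 1.34, 2.34 and 2.24 in the oviducts against 2.23, 2.40 and 2.19 in the tumors. Its log2 value went from 0.93 ± 0.446 to 1.18 ± 0.0720 (n = 3 each), a difference of 0.25 that was within the spread of the oviducts (exact permutation p = 0.6), and of -0.0079 without oviduct 1.

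The make-up of the family's guide strands shifted accordingly. In the oviducts miR-148a-3p took 97.9%, 97.1% and 97.3% of the counts of the 3 guide strands, and in the tumors 89.2%, 88.3% and 82.7%. The mean share was 97.4% ± 0.427 and 86.7% ± 3.52 (n = 3 each). The share of miR-148b-3p went from 1.70% ± 0.445 to 9.19% ± 2.35 and that of miR-152-3p from 0.866% ± 0.0396 to 4.07% ± 1.18. Exact Clopper-Pearson 95% intervals, which cover counting error only, put miR-148b-3p at 1.79 to 2.35% in oviduct 2, its highest oviduct, and at 6.49 to 8.55% in tumor 1, its lowest tumor. The summed level of the guide strands ranged from 18898 to 25715 CPM among the oviducts and from 10446 to 13073 CPM among the tumors. The strand that fell thus remained the main carrier of the seed in all 6 libraries.

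**Figure D2:**
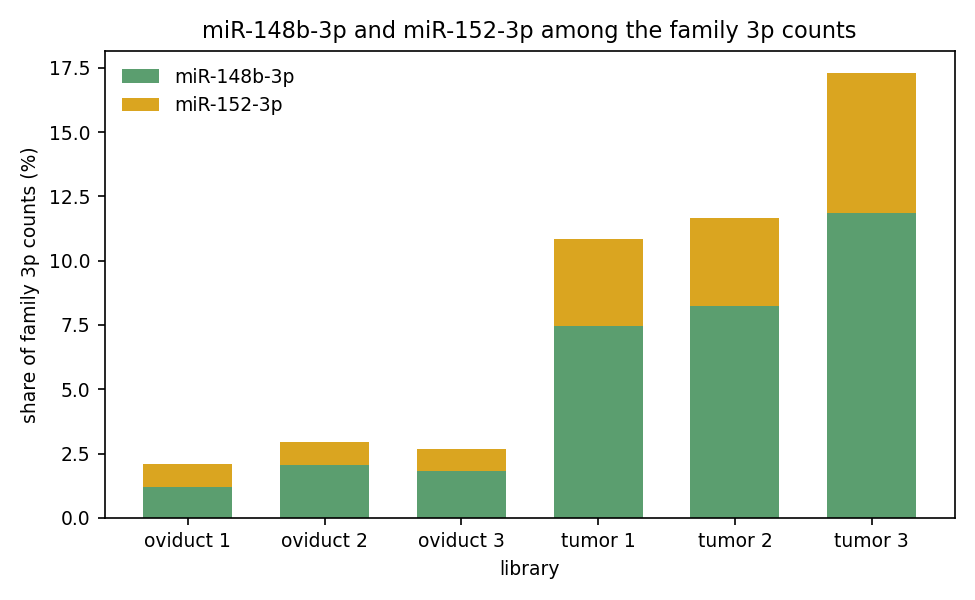
Share (%) of the counts of the 3 family guide strands that belonged to miR-148b-3p (green) and miR-152-3p (yellow, stacked on top) in each library, the rest being miR-148a-3p. The mean miR-148b-3p share is 1.70% in the oviducts and 9.19% in the tumors, and that of miR-152-3p 0.866% and 4.07%.

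The passenger strands of miR-148a and miR-152 were lower in every tumor than in every oviduct. Of miR-148a-5p the oviducts had 45, 69 and 48 counts and the tumors 9, 8 and 4. In CPM these were 140, 126 and 190 against 45.3, 34.3 and 17.6. The mean fell from 152 ± 33.5 to 32.4 ± 14.0 CPM (n = 3 each; edgeR log2 fold change -2.22, SE 0.56, adjusted p = 0.00747). Of miR-152-5p the oviducts had 20, 37 and 21 counts and the tumors 5, 3 and 7, and the mean fell from 71.0 ± 10.7 to 22.9 ± 9.15 CPM (n = 3 each; edgeR log2 fold change -1.61, SE 0.49, adjusted p = 0.0174). The call of miR-148a-5p held in each of 14 alternatives. That of miR-152-5p was lost in 4 of them, with library totals alone (log2 -1.24), with DESeq2 (log2 -1.75, adjusted p = 0.0562), without oviduct 2 (log2 -1.73) and without tumor 2 (log2 -1.27). Among 95 tested 5p strands 48.4% were called lower, so such falls were common.

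The third passenger strand, miR-148b-5p, was hardly counted and did not pass the filter on low counts. It had 4, 10 and 1 counts in the oviducts against 0, 7 and 6 in the tumors, or 11.6 ± 7.19 and 18.8 ± 16.4 CPM (n = 3 each). These values overlapped, and a floor of 3 counts corresponded to 5.48 to 11.9 CPM in the oviducts and 12.9 to 15.1 CPM in the tumors. A difference was not detectable at this depth. In order of mean level the oviducts had miR-148a-3p, miR-148b-3p, miR-152-3p, miR-148a-5p, miR-152-5p and miR-148b-5p, of which miR-152-3p and miR-148a-5p overlapped between libraries. In the tumors the order was the same, and the 3 passenger strands overlapped. The 0 counts of tumor 1 stood beside 194 counts of the 3p strand, which allows a 5p share of up to 1.55% by the floor of 3 counts.

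Within the hairpins, the balance of the arms was called changed in miR-152 and not in miR-148a or miR-148b, and differences between the hairpins were not tested. In the oviducts 21.3%, 28.9% and 29.2% of the miR-152 counts were 5p, and in the tumors 5.43%, 2.80% and 5.15%. The exact 95% intervals did not meet, the lowest oviduct bound being 13.5% and the highest tumor bound 12.2%. The log2 ratio of 5p to 3p counts, with 0.5 added to each, went from -1.47 ± 0.340 to -4.33 ± 0.494 (n = 3 each), a 7.28-fold fall (log2 -2.86, SE 0.58, limma adjusted p = 0.00237). The call held in each of 13 alternatives, with log2 changes between -3.06 and -2.58 when 1 library was left out. Its strands were also called singly in opposite directions, the 5p strand lower and the 3p strand higher.

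In miR-148a the 5p strand was already a small minority. It took 0.554%, 0.682% and 0.788% of the counts in the oviducts against 0.387%, 0.298% and 0.203% in the tumors. The tumors were all below the oviducts, yet the change of the log2 ratio did not pass the threshold (-1.13, SE 0.57, limma adjusted p = 0.127). With a pseudocount of 5 the change was -0.53, and with an interaction model in edgeR it was -1.17 (adjusted p = 0.0550). It lay between -1.33 and -0.91 when 1 library was left out. In miR-148b the 5p share was 3.88%, 4.48% and 0.870% in the oviducts against 0, 2.72% and 2.08% in the tumors, which overlap. The fitted change of its log2 ratio was -1.35 (limma SE 0.96, adjusted p = 0.276), and it was -0.23 without tumor 1, the library with 0 counts of the 5p strand. Over all 142 tested hairpins the ratio of 47.2% was called lower in the tumors, and of the 68 whose 3p strand led in the oviducts, to which the 3 family hairpins belong, that of 23.5% was. The median log2 change of the ratio was -1.53 over all tested hairpins and -0.43 over those 68.

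**Figure D3:**
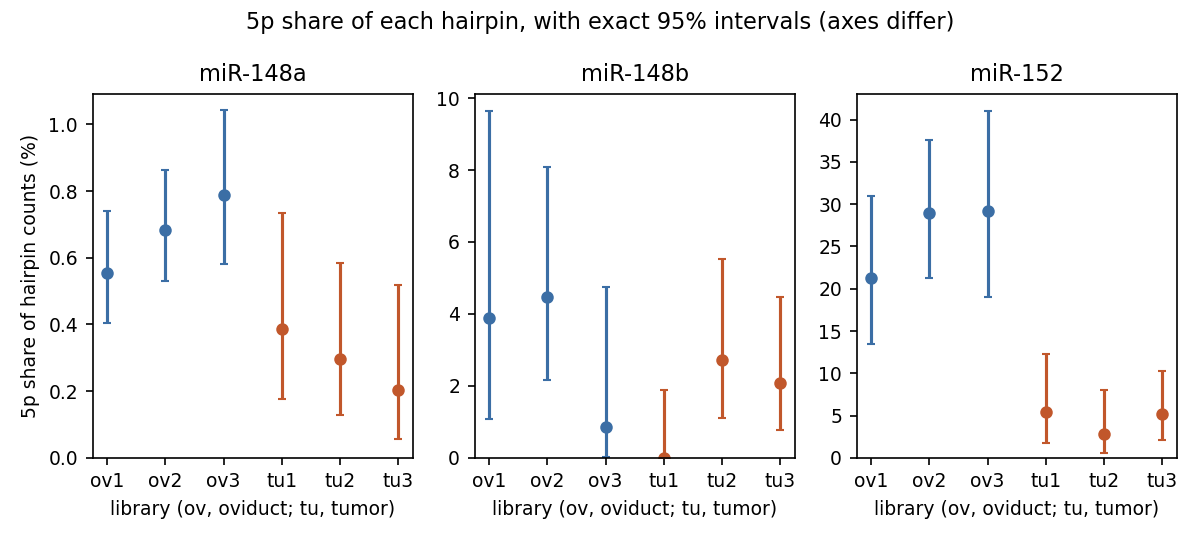
Share (%) of each hairpin's counts that came from its 5p strand, by library (blue, oviducts; orange, tumors), with exact 95% intervals for counting error and a separate axis for each hairpin. The miR-152 share runs from 21.3% to 29.2% among the oviducts and from 2.80% to 5.43% among the tumors, while the miR-148b shares overlap.

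Summing both arms gives the level of a hairpin apart from its arm ratio, with TMM factors computed on the sums. By this measure miR-148a was lower in the tumors, from 21836 ± 3781 to 11041 ± 2135 CPM (n = 3 each; edgeR log2 fold change -0.98, SE 0.26, adjusted p = 0.0179). The miR-148b hairpin was higher, from 381 ± 73.2 to 1150 ± 105 CPM (n = 3 each; edgeR log2 fold change 1.60, SE 0.26, adjusted p = 0.00227). The miR-152 hairpin was higher as well, from 261 ± 34.7 to 523 ± 70.2 CPM (n = 3 each; edgeR log2 fold change 1.01, SE 0.28, adjusted p = 0.0208). Of 183 tested totals 22.4% were called higher and 17.5% lower. The call of miR-148a was lost with library totals alone (log2 -0.70, edgeR adjusted p = 0.285) and that of miR-148b with no low-count filter (log2 1.14, edgeR adjusted p = 0.0535). That of miR-152 was lost in 7 of 10 alternatives. Its log2 change was 1.36 with library totals alone, 0.56 with no low-count filter, 0.88, 0.74 and 0.84 without oviducts 1, 2 and 3, and 1.05 and 0.85 without tumors 2 and 3.

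**Figure D4:**
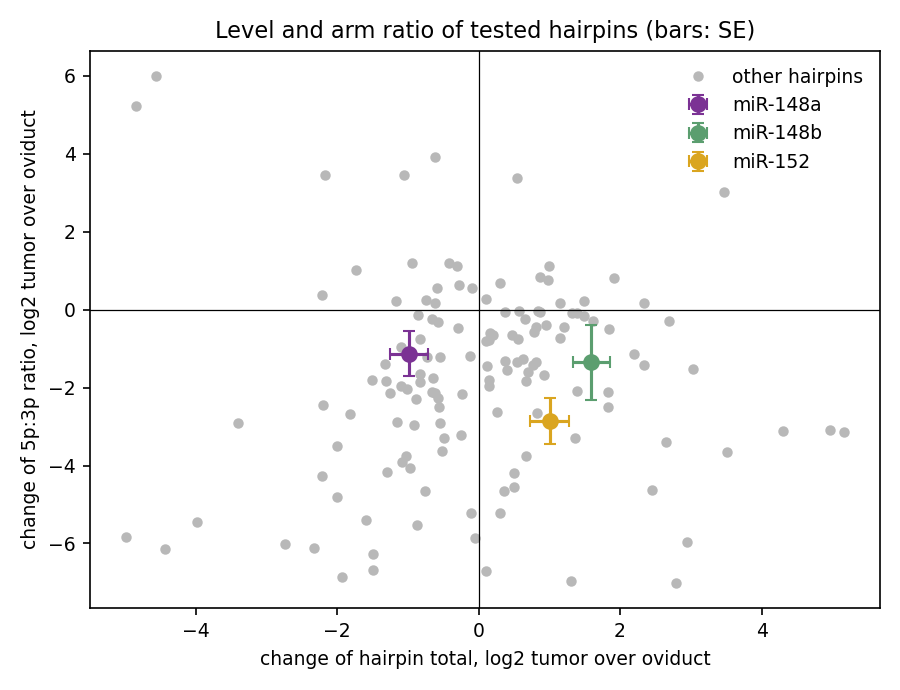
Change of the summed hairpin level (x axis, log2 tumor over oviduct) against change of the 5p:3p ratio (y axis, log2 tumor over oviduct) for tested hairpins, with the family in color and bars for the SE. The miR-148a hairpin stands at -0.98 and -1.13, miR-148b at 1.60 and -1.35 and miR-152 at 1.01 and -2.86, where the ratios of miR-148a and miR-148b did not pass the threshold.

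Other microRNAs known to act on DNA methyltransferases were taken as a list of 9, of which 8 were tested. Of these, 2 were higher, 1 was lower and 5 were not called, with a median log2 change of -0.56 beside 0.20 over all tested names, of which 26.9% were called higher and 25.6% lower. All 8 were 3p strands. Over all tested 3p strands 41.8% were called higher and 10% lower, with a median of 0.89. The miR-29 strands, which act on Dnmt3a and Dnmt3b, had negative changes, of which that of miR-29c-3p was called (181 ± 62.5 to 49.5 ± 13.0 CPM, n = 3 each; edgeR log2 fold change -1.86, SE 0.54, adjusted p = 0.0141). Those of miR-29a-3p (log2 -0.97) and miR-29b-3p (log2 -1.29) missed the threshold. The rises were those of miR-126a-3p (log2 1.48, SE 0.33) and miR-101b-3p (log2 0.88, SE 0.29). Values of miR-143-3p (log2 -0.45), miR-101a-3p (log2 -0.67) and miR-342-3p (log2 0.77) were not called. With TMM factors from 3p names alone 0 of the 8 were higher and 4 lower, and with library totals alone 1 was higher and 0 lower.

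A list of 37 other hairpins with a 3p guide was taken, and the guide strands of 36 were among the mouse names. Of these, 35 guide strands were tested, and 8 were higher, 4 lower and 23 not called, with a median log2 change of 0.28. Over all tested 3p strands 41.8% were called higher and 10% lower, with a median of 0.89. The 8 count miR-199a-3p and miR-199b-3p separately although their counts are the same. The members with the highest counts were miR-143-3p and miR-27b-3p (log2 0.06), which were not called, and the miR-199 strands (log2 2.86, SE 0.30). With TMM factors from 3p names alone 5 were higher and 14 lower.

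Strands with the most similar pattern were sought among the 222 other tested names, by the root mean square difference of log2 CPM over the 6 libraries after centring each name on its own mean. For miR-148a-3p these were miR-10b-5p, let-7e-5p and miR-26b-5p, with differences of 0.25 each beside a median of 0.94 over all names. For miR-148b-3p they were miR-126a-3p (0.096), miR-652-3p (0.23) and miR-25-3p (0.28), beside a median of 1.24. For miR-152-3p they were miR-126a-5p (0.18), miR-30e-3p (0.21) and miR-652-3p (0.22), beside a median of 1.17. The nearest patterns of miR-148b-3p and miR-152-3p both included miR-652-3p, and each included 1 arm of the endothelial hairpin miR-126a. A similar difference between the groups brings names closer by this measure, and 60.4% of all tested names did not overlap between the groups.

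Summed levels of microRNAs typical of cell types are given beside the family, and some of them also differed between the groups. The 4 of multiciliated cells, which line the oviduct, summed to 13673 to 20680 CPM among the oviducts and to 51.5 to 911 CPM among the tumors. This sum was mostly miR-34c-5p in all 6 libraries. All 4 are 5p strands, and 48.4% of tested 5p strands were called lower. Among the 4, miR-449a-5p overlapped between the groups and was not called (edgeR log2 fold change -2.15, adjusted p = 0.147). Both miR-449a-5p and miR-449c-5p had 0 counts in 1 tumor each. The sum of 5 epithelial ones was 6941 to 11969 CPM among the oviducts and 3857 to 7015 CPM among the tumors. The 2 endothelial names are the arms of miR-126a already named among the nearest patterns. Like miR-148b-3p and miR-152-3p, their sum was higher in every tumor. It was 7146 to 9548 CPM among the oviducts and 15198 to 20196 CPM among the tumors. Of the 7 cell-type sums, the multiciliated and the endothelial one did not overlap between the groups, and the other 5 did. Among single tested names, 60.4% did not overlap. For the 4 of smooth muscle and fibroblasts the sum was 493731 to 561412 CPM among the oviducts and 138645 to 863620 CPM among the tumors. That sum was mostly miR-143-3p, and its other members did not overlap between the groups. Of these, miR-145a-5p fell from 2879 ± 345 to 105 ± 59.0 CPM (n = 3 each; edgeR log2 fold change -4.76, adjusted p = 3.8e-05). Like miR-148b-3p and miR-152-3p, miR-199a-3p rose, from 4541 ± 585 to 32951 ± 8227 CPM (n = 3 each; edgeR log2 fold change 2.86, adjusted p = 5.2e-05), and so did miR-214-3p, from 204 ± 1.45 to 1384 ± 323 CPM (n = 3 each; edgeR log2 fold change 2.76, adjusted p = 0.000119). Leukocyte names (5) gave 1091 to 1765 CPM among the oviducts and 743 to 4997 CPM among the tumors. Red-cell names (2) gave 141 to 184 CPM and 155 to 1113 CPM, with miR-144-3p at 0 counts in 1 oviduct and 1 tumor. Striated-muscle names (3) gave 581 to 964 CPM and 39.6 to 715 CPM, with miR-206-3p at 0 counts in 3 oviducts and 2 tumors and miR-1a-3p in 1 tumor. Their part in the changes of the family was not tested.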

How the data were processed

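Small RNA libraries of 3 mouse oviducts and 3 tumors were analysed, grouped by the labels. Per the labels' protocols, total RNA was extracted with a miRNeasy kit and libraries were made with a TruSeq small RNA kit. The submitters' processing notes name cutadapt. The values the authors deposited are raw counts per mature name from BAM files of trimmed reads, per the file headers, without normalization. The names of the aligner and counter, the annotation and the genome build were not given in the sources used here. The 67 names of other species, with 10 counts in all, were left out.

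All tests were fitted across the whole table. Single names and hairpin totals (5p plus 3p) were tested with edgeR 4.0.16 (robust quasi-likelihood, filterByExpr with a minimum count of 10, TMM factors). The factors were 0.734 to 1.49 for single names and 0.668 to 1.48 for totals. Each SE given with edgeR is the absolute log2 fold change divided by the square root of the F statistic of its test. The 5p:3p ratios were tested with limma 3.58.1 on log2 ratios with a pseudocount of 0.5, for hairpins averaging 20 or more counts per library. P-values are two-sided and Benjamini-Hochberg adjusted, with a threshold of 0.05. Ratios between guide strands had exact permutation tests. Alternatives covered scaling, filters, DESeq2 1.42.0, pseudocounts, an interaction model in edgeR, a replicate block and the omission of each library in turn.

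Whether samples of a group are separate animals is not in the labels, so the p-values reflect only the spread among these samples, which could be technical. No library repeated another of its group (lowest chi-square per degree of freedom 11.8). Intervals and floors describe counting error alone, because PCR copies cannot be told from separate molecules here. Levels of different strands are compared as counts, the strands being 21 to 24 bases long. Members and lists were chosen with earlier results of these data known. Named were all family strands, all tested microRNAs of the DNA methyltransferase list, up to 4 of the list of 3p guides with the highest counts, and the 3 nearest patterns of each guide strand. Names outside these were chosen after their values were seen. Sequences came from RefSeq on GRCm38.p6 and gene positions from GENCODE M21 on GRCm38.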

Additional observations from a re-analysis of the deposited data

How the results depend on the processing

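The count of 5 called family strands, 2 higher and 3 lower, was the same with RLE factors, upper-quartile factors and the replicate block. It was 4 with no low-count filter (1 higher, 3 lower). The count was also 4 with names kept from an average of 10 CPM upward (1 higher, 3 lower) and with DESeq2 (2 higher, 2 lower). It was 3 with library totals alone (2 higher, 1 lower) and 3 with TMM factors from 3p names alone (0 higher, 3 lower), and lay between 3 and 5 when 1 library was left out. The counts were 3 without oviduct 1, where 0 were higher, and 3 without oviduct 2. None of the 5 tested strands and no family hairpin ratio or hairpin total changed sign in any alternative run. The difference of the ratio of miR-148b-3p to miR-152-3p lay between -0.0079 and 0.39 when 1 library was left out, so it changed sign, without oviduct 1, and the cause was not tested. Those of miR-148a-3p to miR-148b-3p and to miR-152-3p lay between -2.77 and -2.38 and between -2.50 and -2.10. Over all names 119 were called, 61 higher and 58 lower. With library totals alone these were 72 and 26, with TMM on 3p names 42 and 92, and with no low-count filter, over 919 names, 98 and 76. With the replicate block 108 names were called. The labels link same-numbered oviducts and tumors by nothing beyond the number. Their deviations from the group means correlated at -0.065, 0.050 and -0.14 across 227 names. With 3 libraries in each group such values cannot tell whether samples were paired, so the block is not read as a pairing. Depth limits miR-148b-5p, with 28 counts in all, and miR-152-5p, with 15 in the tumors.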

Other observations

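The 7 bases of the family seed also stand at positions 1 to 7 of 7 other mature names, among them the strands of the related miR-130 and miR-301 hairpins, whose own seed is thus shifted by 1 base. Of these, miR-130a-3p, miR-130b-3p and miR-301a-3p could be tested, while the other four had at most 1 count in all. The level of miR-130b-3p rose from 14.1 ± 7.14 to 343 ± 247 CPM (n = 3 each; edgeR log2 fold change 4.49, SE 0.71, adjusted p = 0.000654) and that of miR-301a-3p from 181 ± 73.6 to 513 ± 212 CPM (edgeR log2 fold change 1.51, SE 0.44, adjusted p = 0.0147). That of miR-130a-3p was 585 ± 236 and 1208 ± 511 CPM and not called (edgeR log2 fold change 1.04, SE 0.41, adjusted p = 0.0534). In oviducts 1 to 3 miR-130b-3p stood at 12.5, 21.9 and 7.91 CPM, where the floor of 3 counts was 9.35, 5.48 and 11.9 CPM. Its fold change thus starts from a level near the floor, and below it in oviduct 3. Over all tested 3p strands 41.8% were called higher, with a median log2 change of 0.89. With upper-quartile factors and with library totals alone miR-130a-3p was called higher (log2 1.18 and 1.54, edgeR adjusted p = 0.0260 and 0.0251). With TMM factors from 3p names alone miR-301a-3p was not called (log2 0.56, edgeR adjusted p = 0.276), and neither was miR-130a-3p (log2 0.08).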
